A study of Bos grunniens x Bos taurus and Bos grunniens with 6 samples.

Results

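The SPATA (spermatogenesis associated) and TEX (testis expressed) genes carry symbols that were given for expression in the testis or for a link to sperm formation. All genes in the deposited table whose symbol is SPATA or TEX followed by a number, with or without a letter and a further digit, were taken. Left out were SPATA22, TEX11, TEX12 and TEX15, which belong to meiosis, and TEX14, which is needed for the intercellular bridges of germ cells. This left 58 of 18918 genes, 32 with a SPATA and 26 with a TEX symbol, under 54 different symbols. The symbols SPATA2, TEX19 and SPATA31E1 stand on more than 1 gene, and genes that share a symbol are reported as uncertain, since near-identical copies may exchange reads. Testis tissue from 3 male cattle-yak (TES5, TES6 and TES7), the F1 offspring of Jersey cattle bulls and Gannan yak cows, was compared with that from 3 male Gannan yak (Yak8, Yak9 and Yak10). All animals were 4 years old, and each library came from 1 animal. F1 male cattle-yak are sterile, and the comparison addresses how their testis differs from that of yak. The groups came from different counties, and per the study's methods the yak were euthanized while the cattle-yak were castrated, although the labels give castration for every sample, so that place and collection cannot be told apart from the cross.

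These names do not mark a gene family, apart from small sets of related genes such as the SPATA31 genes. In the testis, spermatogonia divide and enter meiosis as spermatocytes, which give rise to haploid round spermatids, and these elongate into sperm by building the acrosome, the tail and the mitochondrial sheath of the midpiece. Many SPATA and TEX genes encode parts that are assembled in spermatids, such as proteins of the sperm head, of the neck that joins head and tail, or of the inner wall of the tail microtubules. Others encode proteins used in cells of all kinds, in ribosome assembly, ubiquitin signalling or traffic from the endoplasmic reticulum.

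Levels are given as FPKM, that is fragments per kilobase of gene model, scaled to the number of fragments in the library, in the order TES5, TES6, TES7 for cattle-yak and Yak8, Yak9, Yak10 for yak. The libraries held 11175100 to 11834987 (cattle-yak) and 12991641 to 13136129 (yak) fragments assigned to genes, and at these depths 1 fragment on 1 kb stands for 0.0761 to 0.0895 FPKM. Genes with a mean of at least 0.5 FPKM over the 6 libraries were compared by two-sided limma tests on log2 (FPKM + 1). A gene was called where its p, adjusted by Benjamini-Hochberg, was under 0.05 and its log2 (foldchange) was above 1 or below −1. Of the 15042 genes tested, 20.8% were called lower and 33.4% higher in cattle-yak, with a median log2 (foldchange) of 0.51 over all of them. Scaling by median-of-ratios size factors moved that median by −0.50, to 0.01, and scaling by a list of Sertoli cell genes moved it to −1.34. A fold change on the log2 (FPKM + 1) scale understates the change of genes with low values, so the level in cattle-yak is also given as a percentage of the mean in yak. In tissue libraries, fewer cells of a type and less RNA per cell cannot be told apart.

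Most SPATA and TEX genes were far lower in cattle-yak than in yak. Of 56 genes that passed the minimum for the test, 47 were called lower, 2 higher, and 7 were not called. The median log2 (foldchange) of the 56 genes was −4.63, beside 0.51 over all genes tested. Every cattle-yak value lay below every yak value in 50 of the 56 genes, beside 30.2% of all genes tested. The groups did not overlap in 53 of the 56 genes, which is true of 84.1% of all genes tested. With median-of-ratios scaling 50 were called lower and 0 higher, where 27.7% and 17.7% of all genes were. With Sertoli scaling 53 were lower and 0 higher, where 59.1% and 0.625% of all genes were. The voom method on recovered fragments called 48 lower and 2 higher, where 22.7% and 39.7% of all genes were. For SPATA symbols 27 of 31 tested genes were lower as deposited and for TEX symbols 20 of 25, beside 20.8% of all genes tested. Together the 58 genes summed to 508, 369 and 389 FPKM in the cattle-yak libraries and to 6617, 6283 and 7234 FPKM in the yak libraries. These sums made up 0.0636% to 0.0857% of the library in cattle-yak, whereas yak libraries held 1.05% to 1.18%. In the yak libraries 51 or 52 of the 58 genes reached 10 FPKM and 21 to 24 reached 100 FPKM, whereas in the cattle-yak libraries 10 to 13 reached 10 FPKM and 0 reached 100 FPKM.

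**Figure D1:**
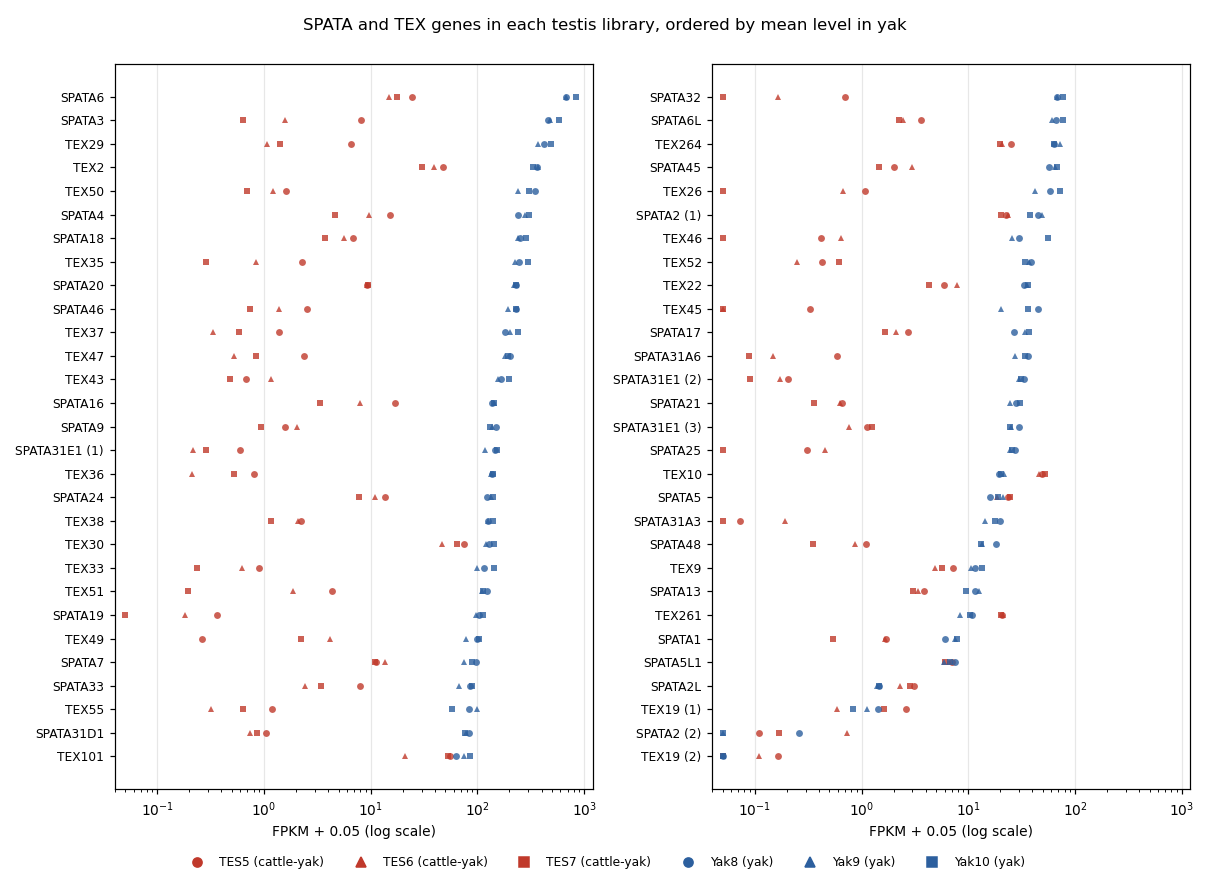
FPKM + 0.05 of each of the 58 SPATA and TEX genes on a log axis, 1 point per library, with cattle-yak in red and yak in blue and genes ordered from the highest to the lowest mean level in yak. For 50 of the 56 tested genes all 3 red points lie to the left of all 3 blue points. TEX10, TEX261 and SPATA2L show the opposite order, and the points of SPATA5, SPATA5L1 and the more abundant TEX19 gene overlap.

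In yak the most abundant of these genes was SPATA6, with 672, 675 and 832 FPKM, followed by SPATA3 with 456, 481 and 585 FPKM and TEX29 with 417, 367 and 486 FPKM. SPATA6 did not overlap with SPATA3, while SPATA3 and TEX29 overlapped. TEX2 (355 FPKM on average), TEX50 (297), SPATA4 (275), SPATA18 (257) and TEX35 (256) came next, and from SPATA3 to TEX35 the animals overlapped between each pair of neighbours in this order. In all, 20 of the 58 genes were among the 1000 most abundant genes of the yak testis. The yak animals differed little among themselves, with a median coefficient of variation of 12.3% over the 56 tested genes. In cattle-yak this was 48.8%, where the median of the mean levels was 1.92 FPKM.

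The largest fall on the log2 (FPKM + 1) scale was that of SPATA3 (ENSBGRG00000023080). It had 8.10, 1.53 and 0.59 FPKM in cattle-yak, from 56, 10 and 4 fragments, against 456 to 585 FPKM in yak. All yak animals lay far above all cattle-yak animals, and the log2 (foldchange) reached −7.25 (limma, standard error [SE] 0.54, adjusted p = 5.6e-06). TEX50 (ENSBGRG00000022239) had 1.56, 1.16 and 0.639 FPKM against 347, 241 and 302 FPKM, a log2 (foldchange) of −7.14 (limma, adjusted p = 8.6e-08). TEX35 (ENSBGRG00000007160) had 2.22, 0.784 and 0.236 FPKM against 243, 227 and 297 FPKM, a log2 (foldchange) of −7.05 (limma, adjusted p = 4.3e-07). TEX29 (ENSBGRG00000009509) had 6.47, 1.01 and 1.36 FPKM in cattle-yak, and its log2 (foldchange) was −7.00 (limma, adjusted p = 2.2e-06). In SPATA3 and TEX29 the value of TES5 was the highest of the 3 cattle-yak by a wide margin, yet it stayed far below the lowest yak value. TEX37 and the most abundant SPATA31E1 gene, at −6.97 and −6.74, had the next largest falls and are described with their groups. Among all genes tested, SPATA3 ranked 32 and TEX50 ranked 36 by the size of the fall on this scale. These ranks depend on the pseudocount. SPATA3 kept 0.672% of the yak level, whereas SPATA19, with a log2 (foldchange) of −6.52, kept 0.143%.

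Of the genes with a role in the sperm head, acrosome or neck, all 5 were lower in cattle-yak. Among all tested SPATA and TEX genes 83.9% were lower, and among all genes tested 20.8%. SPATA6 (ENSBGRG00000000361), which is needed to build the connecting piece between head and tail, had 24.4, 14.7 and 17.6 FPKM in cattle-yak, 2.60% of its level in yak. Its log2 (foldchange) was −5.21 (limma, SE 0.18, adjusted p = 1.6e-07), and the groups were far apart. SPATA16 (ENSBGRG00000003501), a Golgi protein needed for the acrosome, had 16.8, 7.84 and 3.27 FPKM against 136, 142 and 144 FPKM. TES5 held more SPATA16 than the other cattle-yak, and the mean was 6.61% of that in yak (log2 (foldchange) −4.02, limma, SE 0.43, adjusted p = 4.2e-05). SPATA46 (ENSBGRG00000002329), a protein of the sperm head, fell to 0.694% of the yak level, with 2.5, 1.32 and 0.695 FPKM against 228, 194 and 228 FPKM (log2 (foldchange) −6.50, limma, adjusted p = 2.1e-07). TEX38 (ENSBGRG00000001576), which works with the palmitoyltransferase ZDHHC19 in shaping the sperm head, had 2.18, 2.02 and 1.11 FPKM against 127, 127 and 141 FPKM (log2 (foldchange) −5.60, limma, adjusted p = 9.9e-08). TEX22 (ENSBGRG00000007377) fell least in this group, to 17.1% of the yak level, with 5.92, 7.79 and 4.21 FPKM against 33.0, 35.8 and 36.3 FPKM (log2 (foldchange) −2.40, limma, adjusted p = 6.8e-06).

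The 3 genes with a role in sperm mitochondria were all lower, beside 83.9% of the tested set and 20.8% of all genes. SPATA19 (ENSBGRG00000023692), a protein of the mitochondria in the sperm midpiece, was represented by 5, 2 and 0 fragments in cattle-yak. It had 0.315, 0.133 and 0 FPKM there and 103, 97.5 and 112 FPKM in yak. A count of 0 in TES7 allows up to 0.193 FPKM at this depth. By summed fragments SPATA19 stood at 0.145% of the yak level (95% exact binomial interval 0.0582% to 0.298%, which covers counting error only), the lowest share of the 56 tested genes. SPATA18 (ENSBGRG00000000356), known as a factor of mitochondrial quality control, had 6.76, 5.53 and 3.66 FPKM against 248, 238 and 285 FPKM, 2.07% of the yak level (log2 (foldchange) −5.38, limma, adjusted p = 1.6e-07). SPATA33 (ENSBGRG00000026801), which ties the phosphatase calcineurin to sperm mitochondria, had 7.81, 2.39 and 3.36 FPKM against 84.6, 67.4 and 89.3 FPKM. It kept 5.62% of the yak level, with TES5 highest, and its log2 (foldchange) was −4.00 (limma, adjusted p = 7.8e-06).

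All 7 genes with a role inside or beside the microtubules of the axoneme, the core of the sperm tail, were lower. Their median log2 (foldchange) was −5.12. Of the tested SPATA and TEX genes 83.9% were lower, and of all genes tested 20.8%. TEX37, TEX43, TEX49, TEX33 and SPATA48 encode proteins that line the inner wall of the doublet microtubules. TEX37 (ENSBGRG00000017385) had 1.32, 0.28 and 0.539 FPKM in the crossbred animals, while the yak had 182, 202 and 241 FPKM. TEX43 (ENSBGRG00000008384) had 0.631, 1.11 and 0.429 FPKM, from 3, 5 and 2 fragments, against 168, 155 and 199 FPKM. TEX33 (ENSBGRG00000007766) had 0.856, 0.572 and 0.184 FPKM against 115, 98.5 and 143 FPKM. These 3 genes kept 0.343% to 0.453% of the yak level, and no cattle-yak animal came near the yak range. TEX49 (ENSBGRG00000000640) had another order among the cattle-yak, with 0.213 FPKM in TES5, 4.07 in TES6 and 2.18 in TES7, from 1, 18 and 10 fragments, against 98.8, 77.8 and 104 FPKM. This gave a log2 (foldchange) of −5.12 with an SE of 0.45 (limma, adjusted p = 1.3e-05). SPATA48 (ENSBGRG00000021431) was less abundant, with 1.06, 0.811 and 0.30 FPKM against 18.1, 13.5 and 13.2 FPKM, and kept 4.85%. TEX45 (ENSBGRG00000015591) was listed at 0 in TES6 and TES7 and had 5 fragments (0.278 FPKM) in TES5, against 44.7, 20.3 and 36.5 FPKM in yak, where Yak9 was the lowest. SPATA17 (ENSBGRG00000005376), a calmodulin-binding protein, had 2.68, 2.07 and 1.60 FPKM against 27.0, 34.3 and 37.3 FPKM and kept the largest share of the 7 genes, 6.44% (log2 (foldchange) −3.44, limma, adjusted p = 8.9e-07).

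The SPATA31 genes are a set of related testis genes, so their separate levels are uncertain. All 6 were lower, beside 83.9% of the tested SPATA and TEX genes and 20.8% of all genes tested. They had log2 (foldchange) values from −6.74 to −3.79, and kept 0.227% to 3.73% of the yak level. The most abundant, a SPATA31E1 gene (ENSBGRG00000005839), had 0.545, 0.165 and 0.238 FPKM against 146, 117 and 154 FPKM. Of the others with this symbol, ENSBGRG00000005820 (SPATA31E1) had 0.156, 0.124 and 0.0397 FPKM against 33.4, 30.1 and 31 FPKM. The remaining SPATA31E1 gene (ENSBGRG00000016589) had 1.07, 0.71 and 1.20 FPKM against 30.2, 25.1 and 24.5 FPKM and kept the largest share of the set, with 51, 32 and 56 fragments in cattle-yak. Every yak value of these genes lay above every cattle-yak value, as it did in the other 3 genes of the set. SPATA31D1 had 0.991, 0.685 and 0.813 FPKM against 83.5, 77.6 and 76.5 FPKM. SPATA31A6 had 0.534, 0.0975 and 0.0376 FPKM against 36.4, 27.2 and 33.9 FPKM, with TES5 the highest of the cattle-yak. SPATA31A3 had 0.0224, 0.142 and 0 FPKM against 19.6, 14.5 and 17.7 FPKM. SPATA31A3 was represented by 1, 6 and 0 fragments in cattle-yak.

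For 23 genes no role was listed, and 22 of these were lower, the exception being TEX9. This stands beside 83.9% of the tested SPATA and TEX genes and 20.8% of all genes tested. The median share of the yak level over the 23 genes was 1.0%. SPATA20 and TEX51 were chosen after their values were seen, as examples of a small and a large spread within cattle-yak. SPATA20 (ENSBGRG00000007324) was nearly equal in the 3 cattle-yak, with 9.10, 9.28 and 9.31 FPKM, against 232, 219 and 231 FPKM in yak, 4.06% of that level (log2 (foldchange) −4.48, limma, SE 0.09, adjusted p = 5.7e-08). TEX51 (ENSBGRG00000002094) ranged in cattle-yak from 0.145 FPKM in TES7 over 1.81 in TES6 to 4.27 in TES5, with 1, 12 and 30 fragments, against 124, 110 and 112 FPKM in yak (log2 (foldchange) −5.50, limma, SE 0.46, adjusted p = 1.1e-05).

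What remained in cattle-yak varied over more than 3 orders of magnitude among the 56 tested genes. The mean in cattle-yak was under 1% of the mean in yak for 21 genes, from 1% to under 5% for 15, from 5% to under 20% for 8, from 20% to under 60% for 6, and at least 60% for 6. Over all genes tested with a level above 0 in yak, these classes held 2.78%, 3.45%, 7.41%, 12.7% and 73.7%. A log2 (foldchange) of −5 or below was found in 22 of the 56 genes, that is 39.3%, beside 2.18% of all genes tested. For 9 of the genes called lower, 10 or fewer fragments were counted over all cattle-yak libraries. The exact binomial intervals of their shares of the yak level lay between 0.0582% and 2.0%. These intervals cover counting error only, and the order among the 9 genes was not tested.

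Markers of germ cell stages differed in direction, with the spermatid lists lower in cattle-yak, the spermatocyte list mixed and the spermatogonia list mostly higher. Of the 5 round spermatid markers in the table all were lower, with a summed level of 3.33 to 15.7 FPKM in cattle-yak and 634 to 748 FPKM in yak. The 5 elongating spermatid markers were lower as well, with 13.3 to 68.8 FPKM in cattle-yak against 8133 to 9917 FPKM in yak. Of the 6 spermatocyte markers 3 were lower (OVOL2, PIWIL1 and CCNA1), SYCP3 was higher, and their sum was 149.6 to 236 FPKM against 325 to 352 FPKM. The 6 spermatogonia markers summed to 288 to 350.1 FPKM against 68.4 to 82.5 FPKM, with 5 of them higher, and 13 of 14 genes of the Sertoli list were higher, with sums of 1991 to 2184 against 499 to 528 FPKM. The Leydig, myoid, endothelial and macrophage lists had 9 of 9, 5 of 5, 3 of 5 and 4 of 6 genes higher, with summed levels of 10477 to 12481, 560.1 to 755, 28.1 to 47.4 and 111.9 to 159.9 FPKM in cattle-yak and 3354 to 4891, 114 to 141, 26.9 to 31.3 and 81.9 to 112 FPKM in yak. VWF and AIF1 were lower. All these marker calls are as deposited, where 33.4% of all genes tested were higher and 20.8% lower. With Sertoli scaling 0.625% of all genes tested were higher, so the higher calls depend on the scaling. No marker of these lists was at 0 in every library of a group. The part of these shifts in the levels of the SPATA and TEX genes was not tested.

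**Figure D2:**
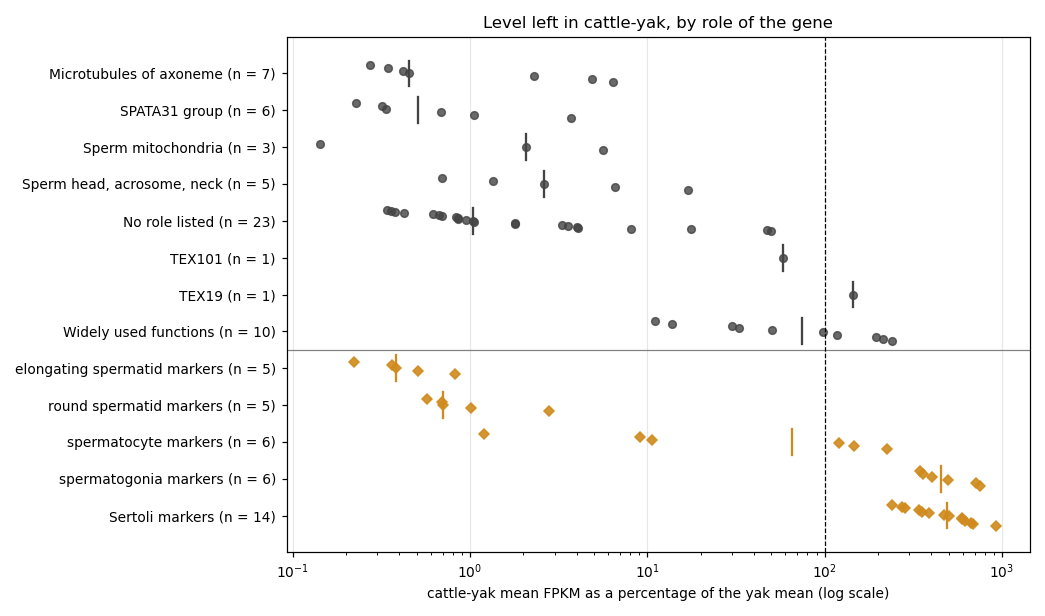
Cattle-yak mean FPKM as a percentage of the yak mean on a log axis, with 1 dot per tested SPATA or TEX gene, grouped by role, and 1 diamond per marker gene of 5 cell type lists below the line. Vertical bars are medians and the dashed line marks 100%. The axoneme, SPATA31, mitochondrial and sperm head genes lie between 0.143% and 17.1%, and the genes with widely used functions between 11% and 240%.

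The small amounts left differed between the cattle-yak animals. In 35 of the 47 genes called lower TES5 had the highest value of the 3, TES6 in 9 and TES7 in 3. TES7 had the lowest value in 32 of the 47 genes. The median share of the yak mean was 1.64% in TES5, 1.57% in TES6 and 0.843% in TES7. Among all 3136 genes called lower, TES5 was the highest in 66.1% and TES7 the lowest in 59.2%, and the summed round spermatid markers were 15.7, 7.57 and 3.33 FPKM in TES5, TES6 and TES7. Of the 58 genes, 8 were listed at 0 in TES7, 1 in TES6 and 0 in TES5. Leaving out TES5 gave 49 genes called lower, and leaving out any other animal gave 46 to 48.

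**Figure D3:**
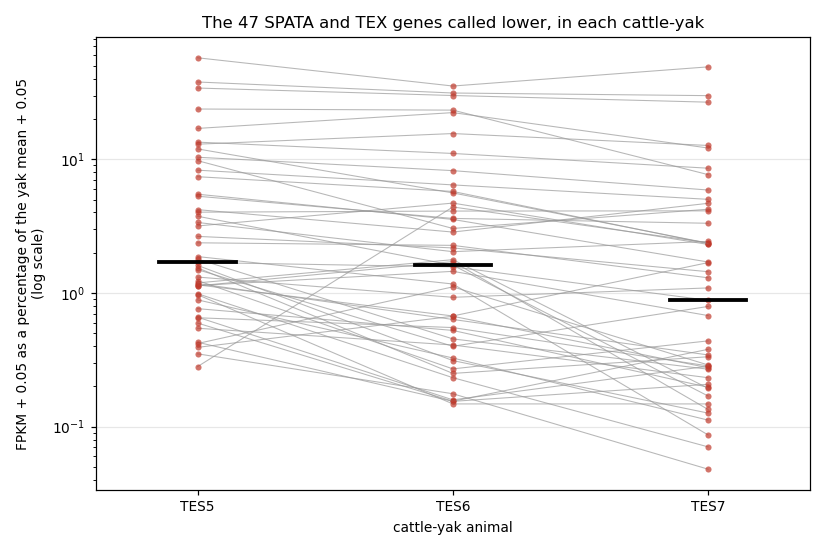
FPKM + 0.05 in each cattle-yak animal as a percentage of the yak mean + 0.05, on a log axis, for the 47 genes called lower. Each thin line joins the 3 values of a gene and the black bars are medians. TES5 has the highest of the 3 values in 35 of the 47 genes, while TEX49 is lowest in TES5.

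Outside the genes with widely used functions, the smallest differences were those of TEX101, TEX30, TEX9 and TEX19. TEX101 (ENSBGRG00000013300), a surface protein of germ cells that sperm precursors need to process ADAM3, had 55.4, 20.9 and 53.6 FPKM in the crossbred animals, while the yak had 63.7, 75.4 and 84.7 FPKM. The animals did not overlap, but the log2 (foldchange) of −0.88 (limma, SE 0.34, adjusted p = 0.038) was not past 1. It came to −1.12 without TES5, to −1.09 without TES7 and to −0.44 without TES6, the animal with the lowest value, and TEX101 was called lower with median-of-ratios (−1.49) and Sertoli scaling (−3.05). TEX30 (ENSBGRG00000025210), singled out after its values were seen, was only just called lower, with 75.4, 46.3 and 64.5 FPKM against 130, 121 and 143 FPKM. Its log2 (foldchange) was −1.09 (limma, SE 0.17, adjusted p = 4.2e-04) and −0.90 without TES6. TEX9 (ENSBGRG00000013941) had 7.14, 4.82 and 5.65 FPKM against 11.5, 10.6 and 13.4 FPKM, a log2 (foldchange) of −0.91 (limma, adjusted p = 9.4e-04) that was not past −1. TEX9 was called lower without TES5 (−1.04), with a pseudocount of 0.1 (−1.01), with voom (−1.02), and with median-of-ratios (−1.46) and Sertoli scaling (−2.84). Of the 2 TEX19 genes, the one with more reads (ENSBGRG00000006227), a factor that restrains retrotransposons in germ cells, had 2.56, 0.542 and 1.57 FPKM against 1.38, 1.08 and 0.778 FPKM, from at most 15 fragments in a library. These ranges overlapped (log2 (foldchange) 0.23, limma, SE 0.30, adjusted p = 0.496), and the sign turned with median-of-ratios scaling (−0.10). The other TEX19 gene had 2, 1 and 0 fragments in cattle-yak and 0 in yak, which was under the minimum for the test.

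The genes with widely used cell functions were called in both directions as deposited, but only downward with median-of-ratios or Sertoli scaling. Of the 11 genes under these symbols 10 were tested, with a median log2 (foldchange) of −0.49. As deposited, 4 were lower, 2 higher and 4 not called, where 20.8% of all genes were lower and 33.4% higher. With median-of-ratios scaling 5 were lower and 0 higher (median −1.06), where 27.7% and 17.7% of all genes were. With Sertoli scaling 8 were lower and 0 higher (median −2.51), where 59.1% and 0.625% of all genes were. The median of all genes under Sertoli scaling was −1.34, so a downward shift there was shared with most genes. The 2 calls in the upward direction, TEX10 and TEX261, were lost with median-of-ratios scaling, and scaling by the Sertoli list turned their sign. TEX10 (ENSBGRG00000000646), part of a complex that acts in the assembly of the large ribosomal subunit, had 49.2, 46.1 and 52.1 FPKM in the crossbred animals, while the yak had 19.5, 21.5 and 20.3 FPKM. Its log2 (foldchange) was 1.22 (limma, SE 0.10, adjusted p = 8.1e-06), 0.62 with median-of-ratios scaling and −0.93 with Sertoli scaling. TEX261 (ENSBGRG00000005392), which helps to export proteins from the endoplasmic reticulum, had 20.8, 21.2 and 20.3 FPKM against 10.7, 8.29 and 10.3 FPKM. The log2 (foldchange) of TEX261 was 1.02 (limma, SE 0.13, adjusted p = 1.0e-04), 0.92 without Yak9, 0.44 with median-of-ratios scaling and −1.05 with Sertoli scaling.

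TEX2 (ENSBGRG00000011148), a lipid transfer protein of the endoplasmic reticulum, had the largest fall of this group. It had 47.7, 39.2 and 30.4 FPKM in cattle-yak and 362, 374 and 329 FPKM in yak, where it ranked 233 among all genes. Its log2 (foldchange) was −3.17 (limma, SE 0.16, adjusted p = 6.9e-07), with 11% of the yak level left. SPATA7 (ENSBGRG00000004424), known from the connecting cilium of photoreceptors, had 11.3, 13.5 and 11 FPKM against 97.1, 74.3 and 89.9 FPKM and kept 13.7% (log2 (foldchange) −2.76, limma, adjusted p = 6.4e-07). TEX264 (ENSBGRG00000025794), a receptor for the autophagy of endoplasmic reticulum, had 25.2, 20.8 and 19.9 FPKM against 63.2, 73.2 and 63.6 FPKM and kept 33.0% (log2 (foldchange) −1.56, limma, adjusted p = 6.7e-06). SPATA13 (ENSBGRG00000015382), an exchange factor for small GTPases, had 3.79, 3.33 and 2.96 FPKM against 11.6, 12.5 and 9.51 FPKM and kept 30.0% (log2 (foldchange) −1.48, limma, adjusted p = 3.4e-05). In these 4 genes no cattle-yak value overlapped with the yak range. All 4 were also called lower under both other scalings. Both scalings shift cattle-yak values down relative to yak, so they could hardly remove a lower call and do not test it.

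SPATA5 (ENSBGRG00000010051) and SPATA5L1 (ENSBGRG00000019163), related ATPases that recycle a ribosome assembly factor, overlapped between the groups. SPATA5 had 23.4, 18.4 and 24.4 FPKM against 15.8, 21.1 and 19.1 FPKM (log2 (foldchange) 0.23, limma, SE 0.15, adjusted p = 0.193), and its sign turned with median-of-ratios scaling (−0.36). SPATA5L1 had 7.0, 6.53 and 6.01 FPKM against 7.42, 5.86 and 6.69 FPKM (log2 (foldchange) −0.02, limma, SE 0.14, adjusted p = 0.876). Of the SPATA2 genes, the one with more reads (ENSBGRG00000003769), which links the deubiquitinase CYLD to the ligase of linear ubiquitin chains, had 22.7, 23.6 and 20 FPKM against 44.9, 48.6 and 37.8 FPKM. The animals did not overlap, and the log2 (foldchange) of −0.95 (limma, SE 0.12, adjusted p = 1.4e-04) lay just inside the threshold, past it without Yak10 (−1.05) and with median-of-ratios scaling (−1.55). The second SPATA2 gene (ENSBGRG00000026925) was not tested, with 1, 11 and 2 fragments in cattle-yak and 4 in Yak8. The related SPATA2L (ENSBGRG00000026749) had 3.05, 2.24 and 2.79 FPKM against 1.40, 1.35 and 1.42 FPKM, a log2 (foldchange) of 0.62 (limma, adjusted p = 4.9e-03) that was not past 1 and turned negative with Sertoli scaling (−0.83).

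**Figure D4:**
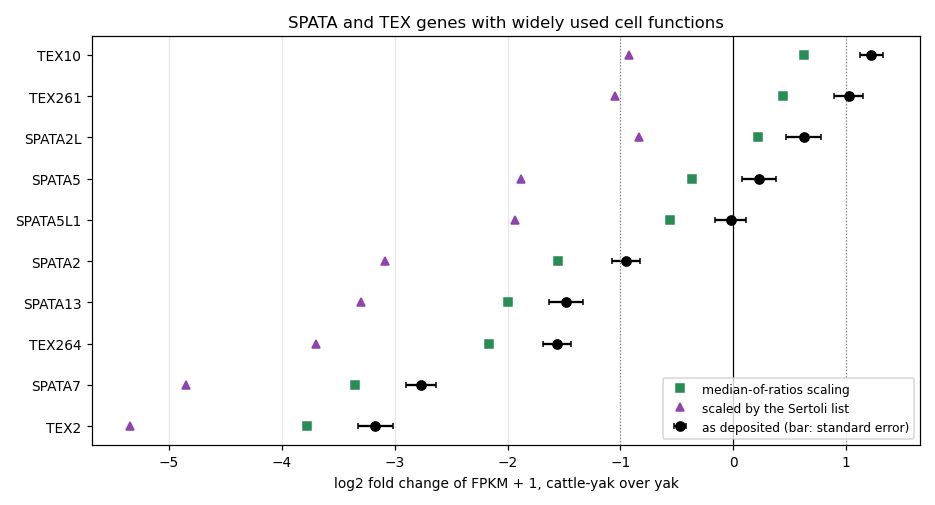
Log2 (foldchange) of FPKM + 1, cattle-yak over yak, for the 10 tested genes with widely used cell functions, as deposited with standard errors (black), with median-of-ratios scaling (green) and scaled by the Sertoli list (purple). Dotted lines mark −1 and 1. TEX2, SPATA7, TEX264 and SPATA13 lie below −1 on each scaling, whereas TEX10 and TEX261 exceed 1 as deposited only.

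Partners of these proteins were taken from a list of 28 symbols, of which 25 were found, on 26 genes. Of the 25 genes tested, 6 were lower (24%, beside 20.8% of all genes tested), 5 higher (20%, beside 33.4%) and 14 not called, and the median log2 (foldchange) was −0.00. The share called lower was thus near that of all genes. Of the partners of SPATA2 in ubiquitin signalling, RBCK1 was higher with 8.14, 9.51 and 8.23 FPKM against 1.22, 1.58 and 1.91 FPKM, and OTULIN with 20.3, 19.4 and 23.8 FPKM against 7.70, 8.22 and 8.65 FPKM. SHARPIN was lower with 13.5, 11.3 and 10 FPKM against 32.1, 28.5 and 25.5 FPKM. CYLD and RNF31 were not called, so these partners did not move in 1 direction as deposited. The log2 (foldchange) of OTULIN was 1.27 as deposited, 0.69 with median-of-ratios scaling and −0.79 with Sertoli scaling, and that of RBCK1 was 1.91, 1.44 and 0.20.

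Among the ribosome assembly partners of TEX10, LAS1L was higher with 61.5, 66.1 and 62.7 FPKM against 15.1, 10.5 and 13.2 FPKM, a log2 (foldchange) of 2.22. NOL9 had 19.3, 23.6 and 22 FPKM against 11.1, 7.99 and 11 FPKM, and its log2 (foldchange), at 1.04, was just past the threshold and came under it without TES6 (0.98), without Yak9 (0.90) and with median-of-ratios scaling (0.47), and Sertoli scaling gave −1.03. PELP1, SENP3 and WDR18 were not called. Of the other receptors for the autophagy of endoplasmic reticulum, listed with TEX264, RETREG1 fell most, with 1.83, 1.28 and 1.78 FPKM against 106, 104 and 115 FPKM (log2 (foldchange) −5.38). RTN3 went the other way, with 135, 126 and 148 FPKM against 35.1, 37.2 and 47.0 FPKM (log2 (foldchange) 1.76, and −0.43 with Sertoli scaling). CCPG1 was lower, with 43.1, 36.6 and 47.3 FPKM against 89.2, 79.7 and 105 FPKM and a log2 (foldchange) of −1.09, which came inside the threshold without TES6 (−0.99) or without Yak10 (−0.98).

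Partners of the sperm proteins were lower where they were called. ZDHHC19, the partner of TEX38, had 0.727, 0.385 and 0.278 FPKM against 15.7, 15.3 and 13.7 FPKM (log2 (foldchange) −3.45). ADAM3, which TEX101 acts on, had 35.4, 13.0 and 6.70 FPKM against 627, 233 and 684 FPKM, with Yak9 lowest in yak (log2 (foldchange) −4.88). LY6K and DPEP3, which bind TEX101, were not called. PPP3CC, the catalytic subunit of sperm calcineurin listed with SPATA33, had 22.2, 18.7 and 17.8 FPKM against 46.9, 56.0 and 41.2 FPKM (log2 (foldchange) −1.25). For SPATA7 none of the 3 tested partners was called, NPHP4, RPGR and RPGRIP1L having log2 (foldchange) values from −0.48 to 0.19.

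**Figure D5:**
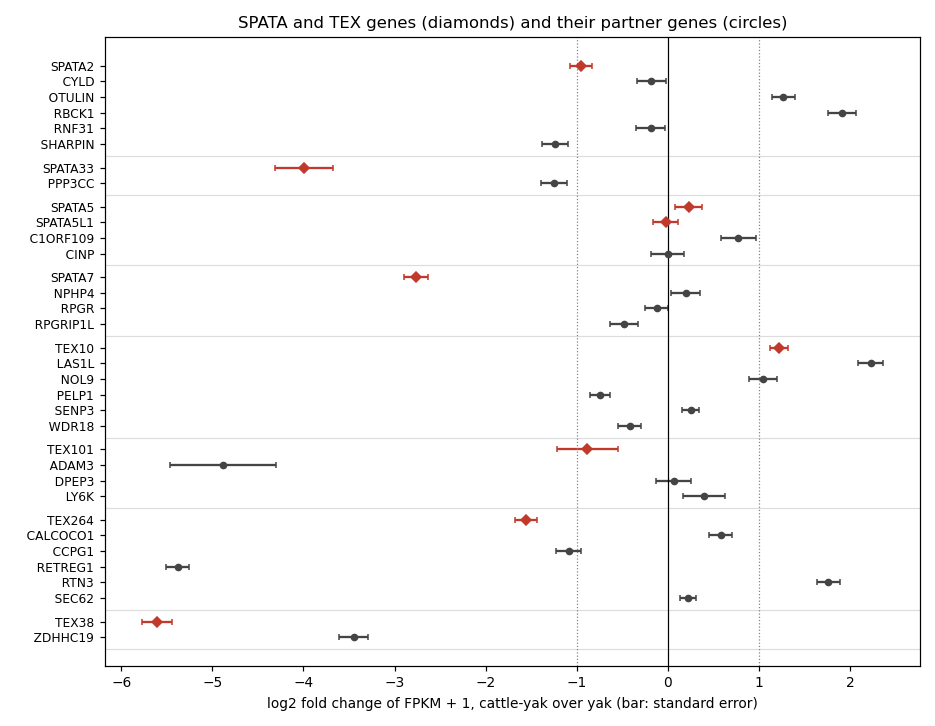
Log2 (foldchange) of FPKM + 1, cattle-yak over yak, with standard errors, for 9 SPATA and TEX genes (red diamonds) and the 25 tested partner genes listed under them (grey circles). Dotted lines mark −1 and 1. TEX38 and ZDHHC19 both lie below −3, while TEX101 lies at −0.88 with ADAM3 at −4.88 and SPATA7 at −2.76 with its partners between −0.48 and 0.19.

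A GO term was given by the authors for 42 of the 58 genes, and 20 of these (47.6%) carried spermatogenesis, beside 1.91% of all 16161 genes with a term. Since the genes were picked by symbols given for the testis or sperm formation, this share is not a separate result. Of those 20 genes 15 were called lower, where 83.9% of the tested SPATA and TEX genes and 20.8% of all genes tested were. Cell differentiation was given for 17 genes (40.5%, beside 2.95% of all annotated genes). Of these 17 genes 14 were called lower, beside the same 83.9% and 20.8%. Multicellular organism development was given for 8 genes (19.0%, beside 2.22%). Integral component of membrane was given for 13 genes (31%, beside 18.5%), all called lower, where 83.9% of the tested SPATA and TEX genes and 20.8% of all genes tested were. The gene models were short, with a median of 1351 bases against 1921 bases over all genes with recovered lengths, and ranged from 396 bases in TEX49 to 4947 bases in SPATA13.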

How the data were processed

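Testis RNA of 3 cattle-yak and 3 yak was sequenced, 1 library per animal. Per the paper's methods and the labels, reads of both groups were trimmed (Trimmomatic) and mapped by HISAT2 to 1 reference, the yak assembly LU_Bosgru_v3.0. Cufflinks served for FPKM and HTSeq-count for read counts. The authors deposited FPKM per gene and animal, not scaled between libraries. The effect of the yak reference on reads of cattle origin was not tested. Columns were matched to samples by title.

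Whole fragments were sought for the 17973 genes with at least 2 values above 0, as multiples of the FPKM of a fragment. They were recovered for all of these genes. A gene was accepted only where its values came within at most 0.03 fragments of whole numbers, so this closeness is set by the search. Genes were compared with limma 3.58.1 in R 4.3.3 on log2 (FPKM + 1), with a variance trend. The recovery and the fit were tested on simulated data. Other values were computed in Python 3.11.15 with scipy 1.17.1. Alternatives were a pseudocount of 0.1, no filter or a minimum of 5 FPKM, median-of-ratios or Sertoli list scaling, no trend, voom on the fragments, and each animal left out.

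The genes, roles, partners, marker lists and tests were chosen with earlier results of these data known. Values per animal are given for genes in the role lists, for the 6 called genes with the largest fall and for those called higher. Called partners are given with their values, and the rest by counts or ranges. Since the deposited values are FPKM and not counts, a test on a log scale was used.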

Additional observations from a re-analysis of the deposited data

How the results depend on the processing

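Of the 47 genes called lower, 46 kept the call in each of the 13 alternatives that tested them, and TEX30 lost it without TES6. The 21 genes for the sperm head, mitochondria, axoneme and SPATA31 set were lower in all 13. Median-of-ratios and Sertoli scaling shift cattle-yak values down relative to yak, so a lower call kept under them was not tested by them. The number called lower was 46 to 53. The number called higher was 2, but 0 with median-of-ratios and 0 with Sertoli scaling, and 1 to 2 with an animal left out (1 without Yak9). The median log2 (foldchange), −4.63, was −5.59 with a pseudocount of 0.1, −5.09 with median-of-ratios scaling, −6.05 with Sertoli scaling and −5.69 with voom. With voom, SPATA19 had −9.72, TEX45 −8.97 and SPATA3 −7.92, so the order of the largest falls rests on the pseudocount. Of the 25 tested partner genes 5 were called higher and 6 lower as deposited, 3 and 8 with median-of-ratios scaling, and 0 and 20 with Sertoli scaling. Over all genes tested, 33.4% were higher and 20.8% lower as deposited, 17.7% and 27.7% with median-of-ratios scaling, and 0.625% and 59.1% with Sertoli scaling. Changes of sign are listed for the SPATA and TEX genes and the called partners only, and some partners not called turned as well. With Sertoli scaling the sign turned for TEX10 (−0.93), TEX261 (−1.05), SPATA5 (−1.88), SPATA2L (−0.83), TEX19 (−0.98), OTULIN (−0.79), NOL9 (−1.03) and RTN3 (−0.43). With median-of-ratios scaling it turned for SPATA5 (−0.36) and TEX19 (−0.10). With an animal left out, the log2 (foldchange) of SPATA5L1 ranged from −0.10 to 0.047 and that of TEX19 from −0.054 to 0.55. Scaling sets the level of every gene at once, so directions near 0 depend on it. No paired analysis was possible because the labels give the groups no shared replicate numbers. At 10 or fewer fragments, shares of the yak level are known no better than their counting intervals, which leave out differences between animals.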
